A study of Mus musculus with 6 samples.

Results

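De novo fatty acid synthesis, the making of fatty acids from acetyl units in the cytosol, was followed through 10 genes that were chosen by name from the 13273 rows of the expression table. They are Slc25a1, Acly and Acss2 of the carbon supply, Acaca, Acacb, Thrsp and Mid1ip1 around the acetyl-CoA carboxylase step, Fasn, and the transcription factor genes Srebf1 and Mlxipl. Each name matched 1 row, and all 10 passed the filter on low values. The data are RNA-seq of whole liver from 6 female C57Bl/6 mice of wild type (WT) genotype, with 1 library per liver. The 3 ETOH-WT mice were fed for 3 weeks on a Lieber–DeCarli diet that held ETOH, from 1% v/v on day 4 up to 6.4% v/v on days 17 to 21. The 3 PF-WT mice were pair-fed the isocaloric control diet without ETOH over the same weeks. The mice were 2 months old at the start and were kept 2 to a cage, and the study uses this feeding as a model of early alcohol-associated liver disease. Mice lacking RARβ were not analysed here. The sample code is shared within a diet and differs between the diets, so whatever it marks cannot be told apart from the diet.

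De novo lipogenesis turns surplus carbon into palmitate. Citrate leaves the mitochondria and is split to acetyl-CoA, the carboxylases convert acetyl-CoA to malonyl-CoA, and fatty acid synthase joins malonyl units with NADPH as the reductant. In liver the genes are known to be driven by SREBP-1c, which answers to insulin, and by ChREBP, which answers to sugars. The liver oxidizes ETOH to acetate, which ACSS2 can also activate to acetyl-CoA.

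Levels are given in FPKM, that is, fragments per length of transcript and size of library. No source used here names this unit or the transcript lengths behind it, so every order or ratio of levels between genes holds only if the values are scaled by length. Summed FPKM per library ran from 567808 to 625003, which does not give the sequencing depth. The depth is unknown here. Values among the weakest genes did not resolve to whole fragments. A gene was called higher or lower in ETOH-WT livers where limma on log2(FPKM + 1) gave an adjusted p under 0.05, the Benjamini-Hochberg value over all 11346 rows tested. Log2 fold changes (ETOH-WT against PF-WT) are on that log2(FPKM + 1) scale, with their standard error (SE), and means are given with the SD over n = 3 livers. Of the 8 hepatocyte markers tested, 1 was higher and 1 was lower, and their summed FPKM was 72310 to 80950 in PF-WT and 63150 to 68930 in ETOH-WT livers. Most of this sum was Alb, at 53970 to 60200 FPKM in PF-WT and 46950 to 52850 FPKM in ETOH-WT livers. Alb did not pass (log2 fold change -0.22, limma adjusted p = 0.541).

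Most transcripts of the pathway were lower in the livers of the ETOH-WT mice, from Acly and Acss2 of the carbon supply through both carboxylases to Fasn, whereas the citrate carrier Slc25a1 did not pass the test. Of the 10 genes, 8 were lower, 0 were higher and 2 did not pass the test, against 2.67% of all rows tested that were called lower, 3.97% called higher and 6.64% called in either direction. By the unadjusted p, also under 0.05, the count was 9 lower and 0 higher. No share of all rows tested at that unadjusted p is given here. This count and the later counts by unadjusted p therefore stand without a background. In 9 genes all 3 ETOH-WT values lay below all 3 PF-WT values, which held for 11.2% of all rows tested (29.1% did not overlap in either direction). The median log2 fold change over the 10 genes was -1.56, beside 0.02 over all rows. Fewer cells expressing these genes and less RNA per cell cannot be told apart in whole liver. The count of calls depended on single libraries, since leaving out PF-WT 2 left 1 lower gene (Acacb), leaving out ETOH-WT 3 left 4 (Fasn, Acly, Acacb and Srebf1), and leaving out any other library left 7.

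Summed over the 10 genes, the PF-WT livers held 1972, 3323 and 3591 FPKM and the ETOH-WT livers 1151, 961.5 and 661.4 FPKM (libraries 1, 2 and 3 in each case, as in every list of values below). The sum was thus lower in each ETOH-WT liver than in any PF-WT liver, with means of 2962 ± 868 and 924.6 ± 246.9 FPKM. As a share of the whole library this was 0.345% to 0.622% in PF-WT and 0.116% to 0.184% in ETOH-WT livers. The 0.184% is that of ETOH-WT 1, whose library sum includes 52060 FPKM listed for Fbxw7 alone, which lowers the share.

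**Figure D1:**
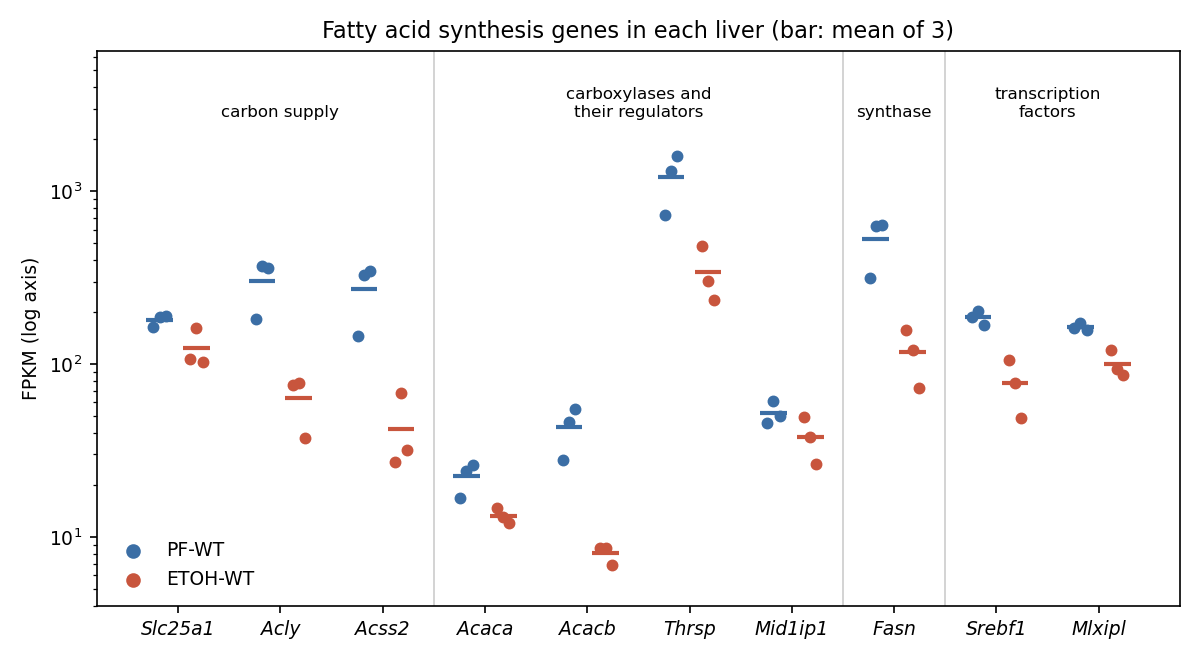
FPKM of the 10 genes in each liver on a log axis, with PF-WT in blue, ETOH-WT in red, 1 point per liver and a bar at the mean of 3, grouped by step of the pathway. In 9 genes the red points lie wholly below the blue ones, and in Mid1ip1 they overlap.

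Stretches of promoter sequence are shown for 5 of the 10 genes, chosen for their sequence: the called genes Fasn, Acacb, Srebf1 and Mlxipl, and Slc25a1, which did not pass the test. RefSeq (build GRCm38.p6) gave 13 windows for the 10 genes, each from 250 bases before a transcript start to 50 after it. Capitals mark CCAAT, the core of the sites that the factor NF-Y binds (read as ATTGG where it lies on the other strand), and the E-box CACGTG, which bHLH factors such as SREBP-1 and ChREBP can bind. All are written 5′ to 3′ along the gene and lie before the start, outside annotated exons.
Fasn (chr11:120824577-120824662, minus strand, -115 to -30): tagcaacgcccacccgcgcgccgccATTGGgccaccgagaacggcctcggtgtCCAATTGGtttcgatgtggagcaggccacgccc
Acacb (chr5:114165406-114165460, plus strand, -112 to -58): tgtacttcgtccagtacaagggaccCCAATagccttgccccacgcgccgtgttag
Srebf1 (chr11:60210472-60210526, minus strand, -55 to -1): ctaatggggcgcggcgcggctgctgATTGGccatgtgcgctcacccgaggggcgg
Mlxipl (chr5:135089692-135089822, plus strand, -198 to -68): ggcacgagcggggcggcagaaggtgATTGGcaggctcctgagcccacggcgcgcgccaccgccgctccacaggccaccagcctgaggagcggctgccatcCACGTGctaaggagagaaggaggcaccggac
Slc25a1 (chr16:17928315-17928469, minus strand, -250 to -96): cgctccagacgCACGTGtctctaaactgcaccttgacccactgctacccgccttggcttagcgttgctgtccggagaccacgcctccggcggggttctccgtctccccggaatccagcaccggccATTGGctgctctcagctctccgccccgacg

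Fasn held CCAAT letters 3 times in its window, with the first base of each at positions -90, -62 and -59 (the base before the start is -1), and the last 2 overlap each other on opposite strands. Acacb held CCAAT once, at -87, and Srebf1 held it at -30 before the start printed here and at -166 before another start. In Mlxipl the reversed CCAAT lay at -173 and the E-box at -98, and in Slc25a1 the E-box lay at -239 with a CCAAT at -125. Searched on both strands, CCAAT was found in 9 of the 13 windows, in 8 of the 10 genes, and in 37.4% of all 32851 promoter windows of this length. It was found at least 2 times in 3 of the 13 windows (Fasn, Thrsp and Slc25a1), and in 11.7% of all windows. The E-box CACGTG stood in 2 of the 13 windows and in 7.15% of all, and GGGCGG, the core of the sites for SP1, in 7 of the 13 and in 35.7% of all. TCACNCCAC, the core of the sterol regulatory element, stood in 1 window, that of a second Mlxipl start at -136, and in 1.24% of all. The matches describe sequence only, and any part of theirs in the levels was not tested. The CCAAT of Acly lay after its start. CCAAT in Acss2 and Thrsp fell within exons of other transcripts, and Acaca and Mid1ip1 had none in their windows.

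Of the carbon supply, Acss2 had the lowest log2 fold change of the 10 genes. Acss2 encodes the acetyl-CoA synthetase of cytosol and nucleus, which activates acetate (ENSMUSG00000027605, GRCm38 chromosome 2, 155517948 to 155585724, plus strand). Its levels were 145.1, 326.1 and 346.8 FPKM in PF-WT and 26.95, 67.58 and 31.71 FPKM in ETOH-WT livers. Every ETOH-WT liver was below every PF-WT liver, and the lowest PF-WT value was 2.15 times the highest ETOH-WT value. The mean fell from 272.7 ± 111.0 to 42.1 ± 22.2 FPKM, 15.4% of the PF-WT mean (log2 fold change -2.68, SE 0.41, limma adjusted p = 0.0121), the 9th lowest log2 fold change of all rows tested. The call was lost without PF-WT 2 (adjusted p = 0.0528) and without ETOH-WT 3 (adjusted p = 0.0552). The locus overlaps Ggt7, Gss, the antisense gene Acss2os and 2 pseudogenes, and no source used here says whether the counting used strand, so part of these fragments could belong to the overlapping genes.

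Acly encodes ATP-citrate lyase, which splits cytosolic citrate into acetyl-CoA and oxaloacetate (ENSMUSG00000020917, chromosome 11, 100476353 to 100528000, minus strand). It stood at 181.6, 369.9 and 360.9 FPKM in PF-WT and at 75.94, 77.40 and 37.58 FPKM in ETOH-WT livers. The diets did not overlap, and ETOH-WT 3 lay below the other ETOH-WT livers, which were nearly alike. The mean fell from 304.1 ± 106.2 to 63.6 ± 22.6 FPKM, 20.9% of the PF-WT mean (log2 fold change -2.24, SE 0.34, limma adjusted p = 0.0125). Only leaving out PF-WT 2 ended the call, at an adjusted p of 0.0530.

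Slc25a1 encodes the carrier that exports citrate from mitochondria (ENSMUSG00000003528, chromosome 16, 17925211 to 17928219, minus strand). Its levels were 163.3, 186.1 and 189.8 FPKM in PF-WT and 106.9, 161.9 and 103.3 FPKM in ETOH-WT livers. ETOH-WT 2 was close to PF-WT 1, while the other ETOH-WT livers were well below. The means were 179.7 ± 14.3 and 124.0 ± 32.9 FPKM, and the difference did not pass the test (log2 fold change -0.56, 95% interval -0.95 to -0.17, limma adjusted p = 0.0943). Without ETOH-WT 2 it passed, with a log2 fold change of -0.77 and an adjusted p of 0.0104.

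Both carboxylase genes were lower. Acacb encodes ACC2, the acetyl-CoA carboxylase at the outer mitochondrial membrane, whose malonyl-CoA restrains the entry of fatty acids into mitochondria (ENSMUSG00000042010, chromosome 5, 114146535 to 114250761, plus strand). It stood at 27.76, 46.33 and 55.29 FPKM in PF-WT and at 8.658, 8.659 and 6.891 FPKM in ETOH-WT livers. Its ETOH-WT livers lay closer to one another than those of any other of the 10 genes except Acaca, and the lowest PF-WT value was 3.21 times the highest ETOH-WT value. The mean fell from 43.1 ± 14.0 to 8.07 ± 1.02 FPKM, 18.7% of the PF-WT mean (log2 fold change -2.23, SE 0.23, limma adjusted p = 0.00337). This was the 1 gene of the 10 that passed under all 12 alternatives tried, with adjusted p from 0.00199 to 0.0227.

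Acaca encodes ACC1, the cytosolic carboxylase that makes malonyl-CoA for synthesis (ENSMUSG00000020532, chromosome 11, 84129672 to 84401651, plus strand). Its levels were 16.85, 24.21 and 26.06 FPKM in PF-WT and 14.62, 12.96 and 12.05 FPKM in ETOH-WT livers. The diets did not overlap, and PF-WT 1 was 1.15 times ETOH-WT 1. Its mean fell from 22.4 ± 4.88 to 13.2 ± 1.30 FPKM, 59.1% of the PF-WT mean (log2 fold change -0.70, SE 0.16, limma adjusted p = 0.0425). When 1 library was left out, the call was lost without PF-WT 2 (adjusted p = 0.161), ETOH-WT 3 (0.145), PF-WT 3 (0.0945), ETOH-WT 2 (0.0905) or ETOH-WT 1 (0.0625). It was also lost under median-ratio scaling (0.0529). The locus overlaps Gm11437 on the other strand and Gm37391. Across its groups, which included mice lacking RARβ, the paper reports no significant change of Acc1 by qRT-PCR.

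Thrsp and Mid1ip1 are related small proteins, Spot 14 and MIG12, of which MIG12 is known to promote the polymerization and activity of acetyl-CoA carboxylase. Thrsp (ENSMUSG00000035686, chromosome 7, 97412938 to 97417730, minus strand) had the highest level of the 10 genes in every liver. It stood at 730.2, 1303 and 1598 FPKM in PF-WT and at 483.2, 303.2 and 235.7 FPKM in ETOH-WT livers. The diets did not overlap, and the mean fell from 1211 ± 441.5 to 340.7 ± 127.9 FPKM, 28.1% of the PF-WT mean (log2 fold change -1.82, SE 0.33, limma adjusted p = 0.0212). Thrsp alone made up 31.5% to 44.5% of the summed FPKM of the 10 genes in the 6 livers. When 1 library was left out, the call was lost without PF-WT 2 (adjusted p = 0.0870), ETOH-WT 3 (0.0791) or ETOH-WT 2 (0.0529).

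Mid1ip1 (ENSMUSG00000008035, chromosome X, 10715013 to 10719690, plus strand) was the 1 gene whose diets overlapped. Its levels were 45.72, 61.22 and 49.98 FPKM in PF-WT and 49.69, 37.77 and 26.38 FPKM in ETOH-WT livers. ETOH-WT 1 lay among the PF-WT livers, and ETOH-WT 3 lay lowest. The means were 52.3 ± 8.01 and 38.0 ± 11.7 FPKM (log2 fold change -0.49, 95% interval -0.98 to 0.01, limma adjusted p = 0.217). It passed in 0 of the 12 alternatives. Gm10489 and Gm14493 lie on the other strand of this locus, as do Gm43500 for Mlxipl, Rai1 for Srebf1 and Gm13784 for Acacb.

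Fasn encodes fatty acid synthase, the multifunctional enzyme that builds palmitate (ENSMUSG00000025153, chromosome 11, 120805846 to 120824547, minus strand). It stood at 314.1, 630.2 and 639.8 FPKM in PF-WT and at 158.3, 120.2 and 72.84 FPKM in ETOH-WT livers. The diets did not overlap, and PF-WT 1 lay nearer to ETOH-WT 1 than to the other PF-WT livers. Its mean fell from 528.0 ± 185.3 to 117.1 ± 42.8 FPKM, 22.2% of the PF-WT mean (log2 fold change -2.16, SE 0.34, limma adjusted p = 0.0131). Only leaving out PF-WT 2 ended the call, at an adjusted p of 0.0589. By qRT-PCR in livers of both diets and both genotypes, the paper reports no significant change of Fasn across its groups.

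The genes of both transcription factors were lower as well. Srebf1 encodes SREBP-1, held in the ER membrane until it is cut and released (ENSMUSG00000020538, chromosome 11, 60199089 to 60222581, minus strand). Its levels were 186.6, 203.6 and 167.8 FPKM in PF-WT and 106.2, 77.65 and 48.92 FPKM in ETOH-WT livers. The PF-WT livers lay close together, all above the ETOH-WT livers, which spread more widely. Its mean fell from 186.0 ± 17.9 to 77.6 ± 28.7 FPKM, 41.7% of the PF-WT mean (log2 fold change -1.31, SE 0.24, limma adjusted p = 0.0227). The call was lost without PF-WT 2 (adjusted p = 0.0917) and without PF-WT 1 (0.0568). The row sums the SREBP-1a and SREBP-1c transcripts, which these values do not separate, and mRNA does not measure the cut protein.

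Mlxipl encodes ChREBP, which acts with its partner MLX (ENSMUSG00000005373, chromosome 5, 135089890 to 135138382, plus strand). It stood at 160.7, 172.5 and 157.0 FPKM in PF-WT and at 120.6, 94.19 and 86.01 FPKM in ETOH-WT livers. The PF-WT livers were nearly alike, and all exceeded the ETOH-WT livers. Its mean fell from 163.4 ± 8.07 to 100.3 ± 18.1 FPKM, 61.4% of the PF-WT mean (log2 fold change -0.71, SE 0.13, limma adjusted p = 0.0208). The call was lost without PF-WT 2 (adjusted p = 0.0934) and without ETOH-WT 3 (0.0769). As with Srebf1, the alternative ChREBP transcripts share this row.

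**Figure D2:**
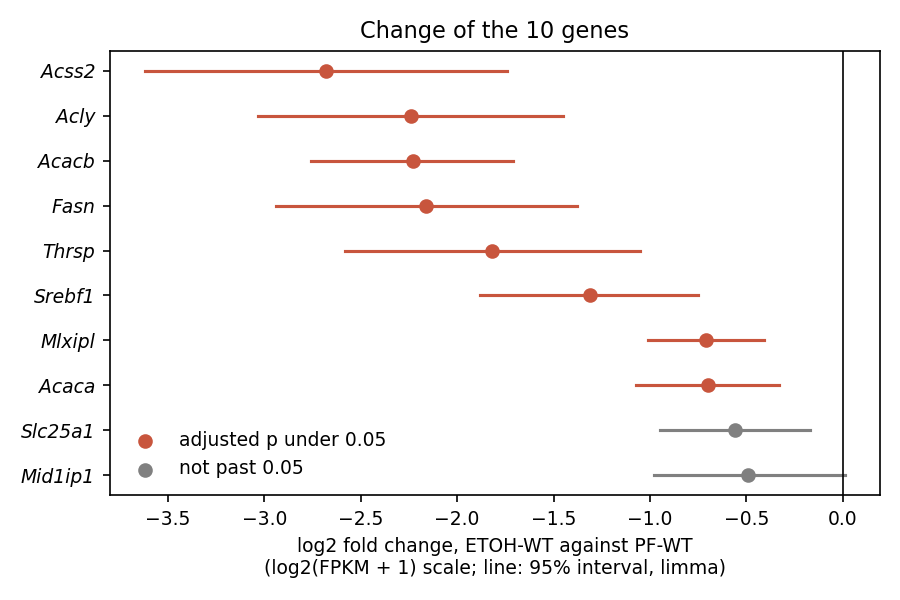
Log2 fold change of each gene, ETOH-WT against PF-WT on the log2(FPKM + 1) scale, with its 95% interval from limma. The 8 genes past the threshold (red) run from -2.68 for Acss2 to -0.70 for Acaca, and the interval of Mid1ip1 reaches 0.01.

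Thus 5 genes stood at 15.4% to 28.1% of their PF-WT mean (Acss2, Acacb, Acly, Fasn and Thrsp), Srebf1 at 41.7%, and Acaca, Mlxipl, Slc25a1 and Mid1ip1 at 59.1% to 72.5%. Among the 100 lowest log2 fold changes of all rows tested were 6 of the 10 genes. Whether genes with related roles changed by unequal amounts was compared as the ratio of their FPKM within each liver, in 4 pairs. An exact permutation test of 3 livers against 3 (two-sided) cannot go below p = 0.1, so none of these pairs could pass 0.05.

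Acacb exceeded Acaca in every PF-WT liver, at ratios of 1.65, 1.91 and 2.12, and was below it in every ETOH-WT liver, at 0.592, 0.668 and 0.572. The order of the carboxylases was thus reversed, with a log2 difference of -1.63 (exact permutation p = 0.1, adjusted over the 4 pairs 0.133). Thrsp exceeded Mid1ip1 16.0, 21.3 and 32.0 times in PF-WT and 9.72, 8.03 and 8.93 times in ETOH-WT livers (log2 difference -1.32, exact permutation p = 0.1, adjusted 0.133). Srebf1 was 1.16, 1.18 and 1.07 times Mlxipl in PF-WT and 0.881, 0.824 and 0.569 times in ETOH-WT livers (log2 difference -0.61, exact permutation p = 0.1, adjusted 0.133). These 3 ratios did not overlap between the diets. The ratio of Acss2 to Acly did overlap, at 0.799, 0.882 and 0.961 in PF-WT and 0.355, 0.873 and 0.844 in ETOH-WT livers (exact permutation p = 0.4). Its log2 difference of -0.46 rested on ETOH-WT 1, and was -0.03 without that library.

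**Figure D3:**
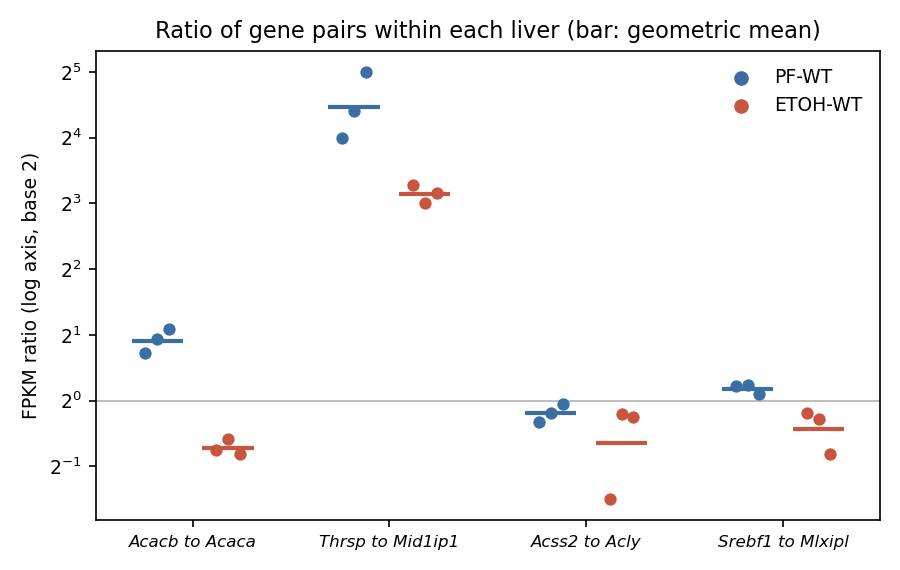
Ratio of FPKM of 4 gene pairs within each liver, on a base 2 log axis, with PF-WT in blue, ETOH-WT in red and a bar at the geometric mean of 3. Acacb to Acaca lies above 1 in the PF-WT and below 1 in the ETOH-WT livers, whereas Acss2 to Acly overlaps, with ETOH-WT 1 at 0.355 and the other ETOH-WT livers among the PF-WT livers.

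By level, the order of means in PF-WT livers was Thrsp, Fasn, Acly, Acss2, Srebf1, Slc25a1, Mlxipl, Mid1ip1, Acacb and Acaca. Only 3 neighbours in this order did not overlap across the 3 livers: Thrsp above Fasn, Mlxipl above Mid1ip1, and Acacb above Acaca. In ETOH-WT livers the order was Thrsp, Slc25a1, Fasn, Mlxipl, Srebf1, Acly, Acss2, Mid1ip1, Acaca and Acacb. There the neighbours without overlap were Thrsp above Slc25a1, Mid1ip1 above Acaca, and Acaca above Acacb. Slc25a1 moved from the sixth place to the second while its own difference did not pass the test.

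Most of the genes also varied together among livers of the same diet. PF-WT 1 was the lowest PF-WT liver in 8 of the 10 genes, beside 26.2% of all rows tested. The exceptions were Srebf1 and Mlxipl, in which PF-WT 3 was lowest and the PF-WT livers lay close together. ETOH-WT 3 was the lowest ETOH-WT liver in 9 of the 10, beside 33.1% of all rows. Set against the PF-WT mean log2 FPKM, Fasn stood at -1.67, -2.06 and -2.79 in ETOH-WT 1, 2 and 3, and Srebf1 at -0.80, -1.26 and -1.92. Acss2 was the exception to the low place of ETOH-WT 3, with ETOH-WT 1 lowest at -3.24 and ETOH-WT 2 highest at -1.91. The 10 genes of 1 liver share its RNA and library, and these ranks are a description.

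**Figure D4:**
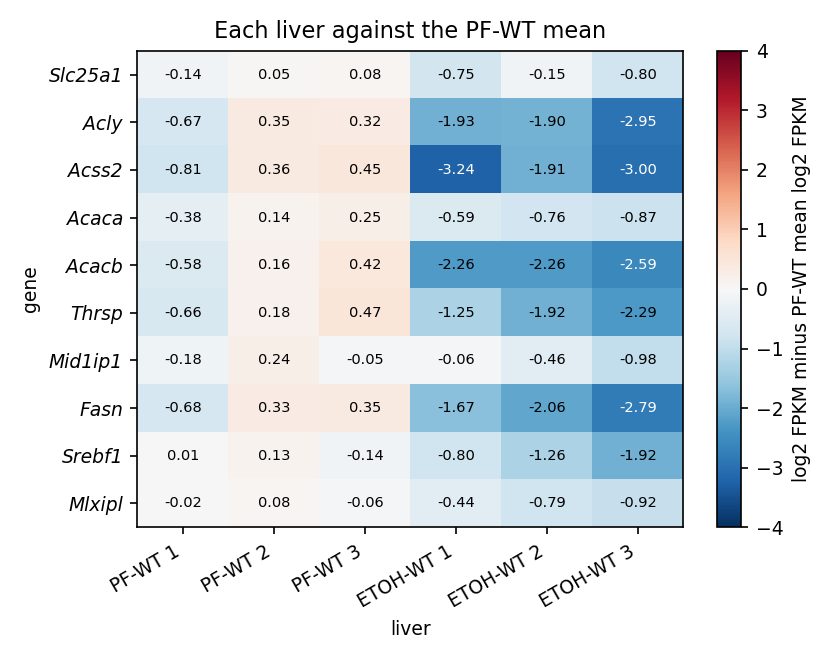
Log2 FPKM of each gene in each liver minus the mean log2 FPKM of the 3 PF-WT livers, with blue for lower and red for higher values. PF-WT 1 is below the other PF-WT livers in 8 of the 10 genes, and the ETOH-WT columns are below 0 throughout, down to -3.24 for Acss2.

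Genes around the pathway were read from 11 lists of 149 genes, of which 140 were tested, with 24 called lower (17.1%) and 5 higher (3.57%). Over all rows tested the shares were 2.67% and 3.97%, so the higher calls were near that background. The lists were chosen with earlier results of these data known, so the share called lower may partly reflect that choice. The control of SREBP-1 is shown first. Of 23 genes, 3 were lower, 0 were higher (3 by the unadjusted p) and 20 did not pass. The median was 0.00. Insig1 encodes a protein that holds the SREBP-SCAP complex in the ER, and is itself an SREBP target. It stood at 425.6, 292.5 and 343.9 FPKM in PF-WT and at 88.78, 103.9 and 106.9 FPKM in ETOH-WT livers. It fell to 28.2% of its PF-WT mean (log2 fold change -1.80, SE 0.15, limma adjusted p = 0.00121). Nfyb, a subunit of the NF-Y factor, fell from 24.6 ± 1.36 to 15.0 ± 1.09 FPKM (log2 fold change -0.68, limma adjusted p = 0.00798), and Scap, the escort of SREBP to the Golgi, from 48.2 ± 4.71 to 33.1 ± 5.11 FPKM (log2 fold change -0.54, limma adjusted p = 0.0443). Insig2 (log2 fold change -0.14), Srebf2 (-0.16) and Nr1h3, the LXRα gene (-0.03), did not pass.

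For ChREBP, 1 of 14 genes was lower, 2 were higher and 11 did not pass, with a median of 0.08. Mlx, the partner of ChREBP, fell from 24.2 ± 1.01 to 16.9 ± 1.90 FPKM (log2 fold change -0.50, limma adjusted p = 0.0286), and leaving out any 1 library other than ETOH-WT 3 left 0 lower genes in this list. Gpd1, which makes glycerol 3-phosphate, rose (log2 fold change 0.78), and so did Slc2a2, the glucose transporter GLUT2 (0.66). The count of 2 higher genes was 1 without ETOH-WT 3 or PF-WT 2, and 3 without ETOH-WT 2. Pklr, the pyruvate kinase gene, had a log2 fold change of -0.57 and did not pass (limma adjusted p = 0.164).

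The next list holds enzymes that make NADPH, the reductant of the synthase, along with pentose phosphate enzymes that do not. In it 4 of 12 genes were lower and 0 were higher (8 and 1 by the unadjusted p), and the median was -0.44. G6pdx, which opens the pentose phosphate pathway, stood at 4.242, 7.786 and 6.708 FPKM in PF-WT and at 1.951, 1.689 and 1.410 FPKM in ETOH-WT livers, with no overlap (log2 fold change -1.40, limma adjusted p = 0.00843). Me1, the cytosolic malic enzyme, fell from 157.1 ± 74.4 to 59.0 ± 1.23 FPKM (log2 fold change -1.28, limma adjusted p = 0.0472). Pgd, the other oxidative enzyme of that pathway (log2 fold change -0.94), and Idh1, the cytosolic isocitrate dehydrogenase (-0.62), fell too. The count of 4 was 1 without PF-WT 2 or without ETOH-WT 3, and 2 without PF-WT 3.

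The supply of citrate and acetyl-CoA outside the 10 genes was mixed, with 1 lower, 2 higher and 14 not passing of 17 tested (median 0.03). Cs, the citrate synthase, fell from 79.4 ± 8.91 to 48.4 ± 5.80 FPKM (log2 fold change -0.70). Slc16a7, a carrier of pyruvate and other monocarboxylates, rose (0.91), and so did Slc25a10, the mitochondrial dicarboxylate carrier (0.53). Without PF-WT 2 or without ETOH-WT 3, none of these 3 calls was left. The higher count was 1 without ETOH-WT 1 or PF-WT 1, and the lower count was 2 without ETOH-WT 2. Acss3, a relative of Acss2 in mitochondria, stood at 13.0 ± 1.95 and 13.5 ± 0.0802 FPKM (log2 fold change 0.06), and Acss1 was under the filter in both diets.

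Among other users of malonyl-CoA, 2 of 7 genes tested were lower and 0 higher (3 and 0 by the unadjusted p), and the median was -0.30. The elongases Elovl5 (log2 fold change -1.56, limma adjusted p = 0.00798) and Elovl2 (-0.67) fell. The count of 2 was 1 without ETOH-WT 1, ETOH-WT 3, PF-WT 2 or PF-WT 3. Elovl6, the elongase of palmitate, stood at 46.85, 121.6 and 139.1 FPKM in PF-WT and at 34.78, 39.55 and 35.50 FPKM in ETOH-WT livers (log2 fold change -1.32, limma adjusted p = 0.0662). Its diets did not overlap, but PF-WT 1 was far below the other PF-WT livers. Mlycd, which breaks malonyl-CoA down, had a log2 fold change of 0.07.

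In 2 lists around the control of the carboxylases and the synthase after translation, 1 of 23 genes was called. Of 13 genes for AMPK subunits and its upstream kinases, 0 were lower and 0 higher by limma (0 and 2 by the unadjusted p), and the median was 0.13. Prkaa1 and Prkaa2, the catalytic subunits of the kinase that phosphorylates both carboxylases, had log2 fold changes of 0.21 and 0.31. The diets did not overlap in 4 of the 13 genes, these subunits among them, beside 29.1% of all rows tested. Of 10 other genes tested, not all of which act on the carboxylases or the synthase, 1 was higher and 0 lower (4 and 2 by the unadjusted p). This was Trib3, a pseudokinase shown in mouse fat tissue to bring acetyl-CoA carboxylase to the COP1 ubiquitin ligase. It stood at 4.626, 1.224 and 2.802 FPKM in PF-WT and at 13.40, 16.33 and 11.67 FPKM in ETOH-WT livers (log2 fold change 2.02, SE 0.30, limma adjusted p = 0.0112). Hlcs, which attaches biotin to the carboxylases, and Aasdhppt, which attaches the phosphopantetheine arm of the synthase, had log2 fold changes of -0.17 and -0.22 and did not pass. The diets did not overlap in 6 of these 10 genes, Trib3 and Hlcs among them.

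Next comes a list around the desaturation and esterification of fatty acids, which also holds the acyl-CoA synthetase genes Acsl3 and Acsl5. It had 7 lower, 0 higher and 7 not passing of 14, with a median of -0.68. This was 6 or 7 lower genes whichever library was left out. Scd1, the stearoyl-CoA desaturase, stood at 2129, 4453 and 5301 FPKM in PF-WT and at 216.9, 312.9 and 132.6 FPKM in ETOH-WT livers (log2 fold change -4.14). Pnpla3, a lipase and acyltransferase on the droplet surface, dropped to 2.91% of its PF-WT mean (-4.30), and Gpam, the first acyltransferase of glycerolipid assembly, from 126.7 ± 47.2 to 31.9 ± 3.31 FPKM (-1.89). Scd1 and Pnpla3 were thus further from their PF-WT mean than any of the 10 synthesis genes. The change of these genes from the same livers is given side by side, and a difference between lists was not tested.

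Related systems that share chemistry but not the cytosolic pathway served as a comparison. The separate fatty acid synthesis system of mitochondria had 0 lower and 0 higher of 8 genes tested, both by limma and by the unadjusted p, and the median was 0.00. The other 4 genes for carboxylases that use biotin also had 0 and 0 by either count, with a median of -0.19. Cholesterol synthesis, under the related factor SREBP-2, had 6 lower and 0 higher of 18 (12 and 1 by the unadjusted p), and the median was -0.93. Its called genes included Pmvk, the phosphomevalonate kinase (log2 fold change -1.89), and Lss, the lanosterol synthase (-1.22). The count of 6 was 15 without ETOH-WT 2, 2 without ETOH-WT 1 or PF-WT 3, and 1 without ETOH-WT 3 or PF-WT 2.

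**Figure D5:**
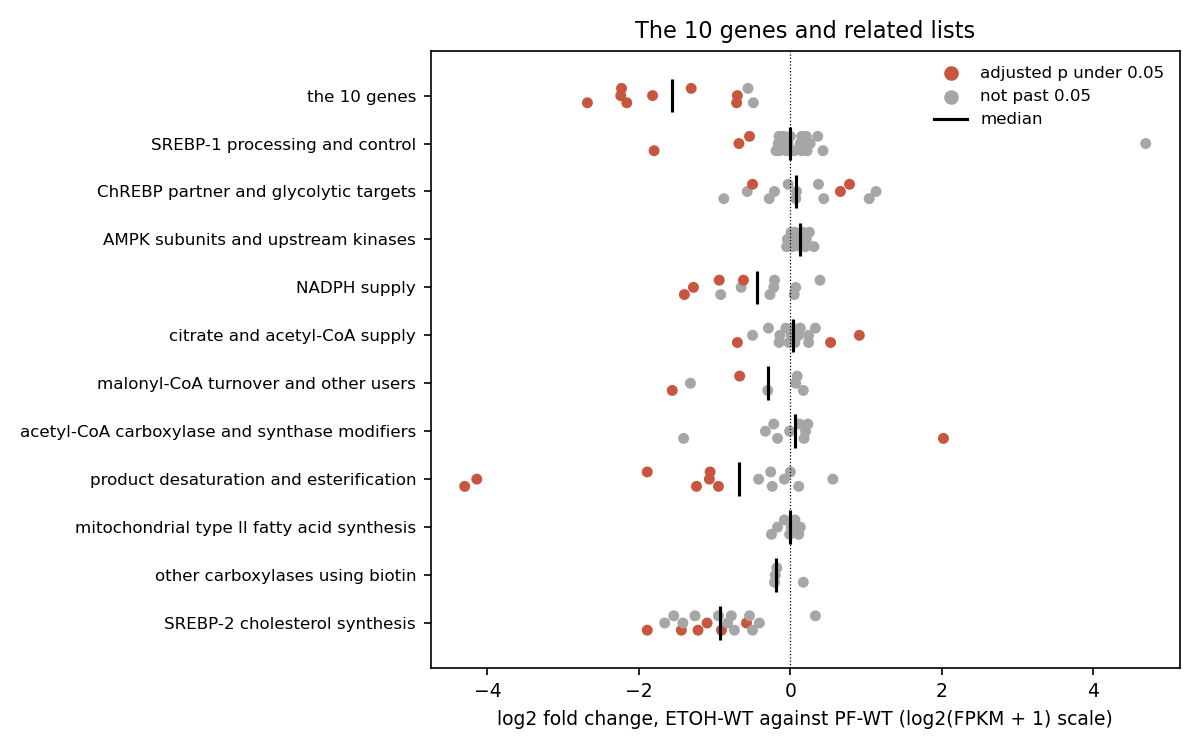
Log2 fold change, ETOH-WT against PF-WT on the log2(FPKM + 1) scale, of the 10 genes and of the genes tested in 11 related lists, with red for an adjusted p under 0.05 from limma and a black bar at the median. The medians run from -1.56 for the 10 genes to 0.13 for AMPK, and the far right point of the SREBP-1 list is Fbxw7, at 52060 FPKM in ETOH-WT 1 alone.

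The mean profile of the 10 genes over the 6 livers, on log2(FPKM + 1) with the PF-WT mean set to 0, was compared with every other row tested by the root mean square difference. The 5 most alike were Elovl5 (difference 0.084), G6pdx (0.145), the kallikrein gene Klk1b4 (0.154), the acid phosphatase gene Acpp (0.178) and Fads1, the delta-5 desaturase (0.225). Elovl5 stood at 315.0, 447.2 and 500.6 FPKM in PF-WT and at 152.2, 165.0 and 107.3 FPKM in ETOH-WT livers. Klk1b4 and Acpp have low levels here, with PF-WT means of 4.20 and 4.80 FPKM. Likeness over 6 livers with 1 difference between diets is a description and says nothing of shared control.

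Markers of other cells were measured beside these results. In the 8 lists for Kupffer, stellate, endothelial, cholangiocyte, lymphocyte, neutrophil, erythroid and muscle cells, 0 of 38 genes tested passed by limma, with 7 lower and 2 higher at an unadjusted p under 0.05. Fat cells make fatty acids by the same genes, but of 8 adipocyte markers only 2 had a row in the expression table. The others, Adipoq, Lep, Plin1, Retn, Cfd and Adig, had no row under that name. Adrb3 fell from 3.08 ± 0.554 to 1.28 ± 0.0848 FPKM (log2 fold change -0.83, limma adjusted p = 0.0118), and Car3, which hepatocytes also express, did not pass. The summed FPKM of these 2 markers, nearly all of it from Car3, was 1300 to 1996 in PF-WT and 1301 to 2418 in ETOH-WT livers. The pericentral markers had 2 higher of 8, Cyp1a2 (log2 fold change 0.83) and Slc1a2 (0.80). The other 6 did not pass, among them Glul (-0.03), Cyp2e1 (0.19) and Axin2 (-0.16). The periportal markers had 1 higher and 1 lower of 8, Hsd17b13 (0.86) and Sds (-0.73). Over all rows tested, 3.97% were called higher and 2.67% lower. The part of cell composition in the lower levels was not tested.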

How the data were processed

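Liver RNA of 3 ETOH-WT and 3 PF-WT mice (1 library per mouse) was sequenced by the authors after 15 PCR cycles as 51 bp pairs. The authors deposited 1 table of values taken here as FPKM. The unit was inferred from the values, and no source used here names the program behind it. Alignment by STAR 2.5.2b and counting by HTSeq-count 0.11.2 are given by the paper. GEO's processing notes list cutadapt, TopHat2 2.0.11, HTSeq 0.11.2 and 1.6.3, and the build mm10, without their order. A count model was not run, since FPKM are not counts. Positions were copied from the table (GRCm38), and in 80.0% of rows both ends equal those of GENCODE vM21.

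Values were transformed to log2(FPKM + 1), a pseudocount that understates the change of weak genes. Rows averaging 0.5 FPKM or more (11346) entered limma 3.58.1 in R 4.3.3 (eBayes with trend), with a term for diet alone and 4 residual degrees of freedom, two-sided p-values and a Benjamini-Hochberg threshold of 0.05. Gene pairs were compared by exact permutation of their log2 FPKM ratios (Python 3.11.15, scipy 1.17.1). Of rows repeating a gene name (25), the one with the higher mean counted. Named besides the 10 genes are up to 3 called genes at each end of every list, 19 pathway genes set by name, and the 5 rows most alike. Some genes that this rule names are not reported here. The 10 genes and all lists were chosen with earlier results of these data known. Promoters came from RefSeq (GRCm38.p6), and those printed were chosen after their motifs were seen. Alternatives were pseudocounts of 0.1 and 2, no filter, a filter at 1 FPKM, median-ratio scaling, a replicate block and leaving out each library.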

Additional observations from a re-analysis of the deposited data

How the results depend on the processing

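No direction of the 10 genes reversed under any of the 12 alternatives. The 8 lower genes stayed 8 with pseudocounts of 0.1 and 2, without the filter and with a filter at 1 FPKM. They were 7 under median-ratio scaling, where Acaca was lost, and 1 to 7 when 1 library was left out. Leaving out 1 library gave 13 to 41 calls in the pathway lists, against 29 with all libraries, with 13 without PF-WT 2, 14 without ETOH-WT 3 and 41 without ETOH-WT 2. Over all rows tested, the calls were 450 higher and 303 lower as deposited (59.8% higher), and 328 and 331 under median-ratio scaling (49.8% higher), which moved the median log2 fold change from 0.02 to 0.00. Without PF-WT 2, 83 rows were higher and 76 lower, and without ETOH-WT 3, 114 and 76. The cause was not tested. With the replicate number as a block, 6 of the 10 genes and 28 list genes were called, and Acaca (adjusted p = 0.0903) and Thrsp (adjusted p = 0.0603) were lost. No source used here says whether same-numbered mice were matched in feeding. Deviations of same-numbered livers correlated at -0.010, -0.016 and -0.034 across genes, which cannot settle whether the mice were matched. The log2 differences of the pair ratios moved by less than the spread between livers with a pseudocount of 1, to -1.54 for Acacb to Acaca.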

Other observations

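Cholesterol genes and fatty acid genes ranked the ETOH-WT livers differently. Of the 18 genes of cholesterol synthesis tested, ETOH-WT 2 was the highest of its diet in 16, beside 38.7% of all rows tested, and it reached at least the lowest PF-WT value in 9. Against the PF-WT mean, the median log2 level of these genes was -1.69, -0.25 and -1.10 in ETOH-WT 1, 2 and 3. For the 10 genes of fatty acid synthesis it was -1.02, -1.57 and -2.09, and none of them reached the lowest PF-WT value in ETOH-WT 2. The difference between the lists was not tested.

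Fbxw7, whose product marks nuclear SREBP for degradation, was listed at 52060 FPKM in ETOH-WT 1 and at 1.78 to 2.37 FPKM in the other 5 livers. The summed FPKM of ETOH-WT 1 was 625003 with this row and 572943 without it. In that library no row was listed at 0, whereas 86 to 163 rows were in each of the others.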
